A study of Rattus norvegicus with 23 samples.

Results

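The genes described here were high in repaired rat median nerve at day 3, both against healthy tissue and against day 7. They were chosen by their measured levels: a mean of at least 10 CPM (counts scaled to the library total) at day 3 in both repair series, at least 3 times the mean of every healthy tissue, and at least 3 times the mean of the same series at day 7. The rule found 190 genes among the 32545 gene identifiers of the count table; 9099 of these were never counted. Because the same values chose the genes, their levels at day 3 against healthy tissue and against day 7 are given as a description, with no test. Only days 3 and 7 were sampled after repair, so the time of the highest level lies outside what these data show. The gene identifiers matched no symbol (0 of 32545), so the genes could not be named by function, the pathway and cell type lists could not be measured, and whether they are known repair genes was not checked.

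RNA was sequenced from 23 libraries of wild-type adult female rats. Healthy median nerve (5 libraries), adductor muscle (3) and epigastric vein (3) had no treatment and are listed as day 0. In the operated rats the median nerve was cut to leave an 8 mm gap, and a graft of 10 mm, a vein segment filled with muscle (muscle-in-vein), is named in the study design as the repair. The MIV series is labelled as repaired after cut injury with MIV, and the EV series as repaired after cut injury alone, with 3 libraries each at days 3 and 7. EV is not spelled out in the labels. No library of a cut nerve without repair is among these groups. The labels do not say whether libraries came from separate or pooled animals, so the p-values below measure the spread between these samples, which may be technical.

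When a peripheral nerve is cut, Schwann cells beyond the cut break down their myelin and enter a repair state, and immune cells arrive to clear debris and release signals. Fibroblasts and vessel cells build tissue across the gap, along which Schwann cells and regrowing axons later pass. Early injury responses such as inflammatory signalling and stress transcription are known to be short-lived compared with matrix building and remyelination. This is background, and the unnamed genes below cannot be assigned to any of these processes.

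Library totals ran from 12504035 to 17314324 counts. Genes at least 3 times higher in healthy muscle than in healthy nerve and vein (608 genes, 0 of them among the 190) took 2.64 to 2.82% of the counts in the EV day 7 libraries, and 8.87%, 2.63% and 18.4% in MIV day 7 libraries 1, 2 and 3. At day 3 the same muscle genes took 2.73 to 3.44% in EV and 3.69 to 5.65% in MIV. A larger muscle share leaves fewer counts for every other gene, so the counts of genes whose MIV and EV libraries do not overlap, and the summed shares at day 7, are also given per non-muscle count. In whole tissue, fewer cells of a type and less RNA per cell cannot be told apart.

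The 190 genes took a far larger share of the counts at day 3 than in healthy tissue, and most of that excess was gone by day 7. Their summed share was 0.126 ± 0.00393% of counts in healthy nerve (SD, n = 5), 0.0471 ± 0.00458% in muscle (n = 3) and 0.139 ± 0.00528% in vein (n = 3). At day 3 the EV libraries held 1.33%, 1.58% and 1.83% (mean 1.58 ± 0.251%) and the MIV libraries 1.31%, 1.66% and 1.77% (mean 1.58 ± 0.241%). At day 7 the EV libraries held 0.360%, 0.333% and 0.305% (mean 0.333 ± 0.0277%) and the MIV libraries 0.295%, 0.334% and 0.234% (mean 0.288 ± 0.0505%). Every day 3 library stood above every day 7 library, and every day 7 library above every healthy one. Within each day the EV and MIV libraries overlapped.

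**Figure D1:**
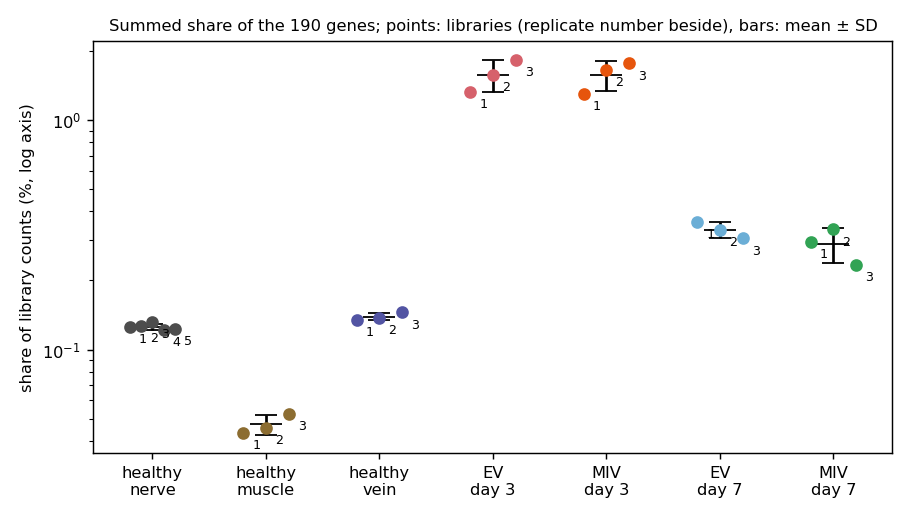
Summed share of library counts (percent, log axis) taken by the 190 genes in each of the 23 libraries, by group; points are libraries with their replicate number, bars are mean ± SD. The day 3 libraries sit between 1.31 and 1.83%, the day 7 libraries between 0.234 and 0.360%, and the healthy libraries below both.

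A few genes carried much of this sum. The 4 most abundant held 32.4% of the CPM of the 190 genes at day 3, and 28 genes reached 100 CPM in both series. The median of the mean day 3 levels was 35.6 CPM (range 10.6 to 2218 CPM). ENSRNOG00000017895 was the most abundant: its CPM was 1217, 2145 and 2531 in EV and 2367, 2621 and 2426 in MIV at day 3. It was already abundant in healthy tissue, at 288 to 418 CPM in nerve, 365 to 442 CPM in vein and 181 to 223 CPM in muscle. At day 7 it stood at 410, 426 and 363 CPM in EV and at 533, 624 and 384 CPM in MIV, so the EV libraries lay inside the nerve range apart from one just above it, and 2 of the 3 MIV libraries above it. The next gene, ENSRNOG00000001414, varied far more between libraries of a group, with 698, 1516 and 793 CPM in EV and 462, 2175 and 1062 CPM in MIV at day 3. At day 7 it had 441, 112 and 189 CPM in EV and 183, 56.0 and 227 CPM in MIV, against 9.09 to 51.9 CPM in nerve.

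Most of the genes were rare in healthy tissue. Of the 190, 65 were under 1 CPM in nerve, muscle and vein alike, and 21 reached 10 CPM in at least one of them. The median ratio of the day 3 mean to the highest healthy mean was 23.8 in EV (3.11 to 238) and 20.9 in MIV (3.17 to 186). All 190 had every day 3 library above every healthy library, against 18% of all tested genes. That share follows from the choice of the genes.

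The fall to day 7 had a median of 4.90-fold in EV (quartiles 4.09 and 5.71, range 3.02 to 79.1) and 6.03-fold in MIV (quartiles 4.60 and 7.34, range 3.00 to 125). Expressed as the part of the rise over healthy nerve that was left at day 7, the median gene kept 16.1% in EV (−6.23 to 28.9%) and 12.3% in MIV (−13.1 to 32.8%). These values use column totals, which the muscle share of MIV day 7 libraries 1 and 3 (8.87% and 18.4%) affects. Per non-muscle count, the mean summed share of the 190 went from 1.63 to 0.342% in EV and from 1.65 to 0.318% in MIV. The mean at day 7 was at or below the nerve mean for 5 genes in EV and 11 in MIV, while 72 genes in EV and 53 in MIV were still above 10 CPM. Only 10 genes fell more than 8-fold in both series.

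ENSRNOG00000002916 had the largest fall. It was at 5.52, 29.1 and 55.8 CPM in EV and 24.1, 30.1 and 72.4 CPM in MIV at day 3, and at 0.292, 0 and 0.851 CPM in EV and 0.264, 0.291 and 0.460 CPM in MIV at day 7. Those are folds of 79.1 and 125 between group means that rest on very few counts at day 7. In healthy muscle it was at 2.14 to 4.79 CPM, above every day 7 library. ENSRNOG00000023633 came next, with 18.7, 50.3 and 158 CPM in EV and 61.8, 33.2 and 33.2 CPM in MIV at day 3, and at most 2.27 CPM at day 7. Its day 3 mean was 73.2 times its day 7 mean in EV and 40.0 times in MIV. In healthy vein it had 5.93, 9.88 and 15.6 CPM, so its day 7 level was below that of vein in all 6 libraries. At the other end, ENSRNOG00000016689 went from 41.6, 49.7 and 42 CPM in EV and 29.3, 43.2 and 59.0 CPM in MIV to 11.5 to 17.1 CPM in the 6 day 7 libraries, close to its 10.4 to 13.7 CPM in nerve.

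**Figure D2:**
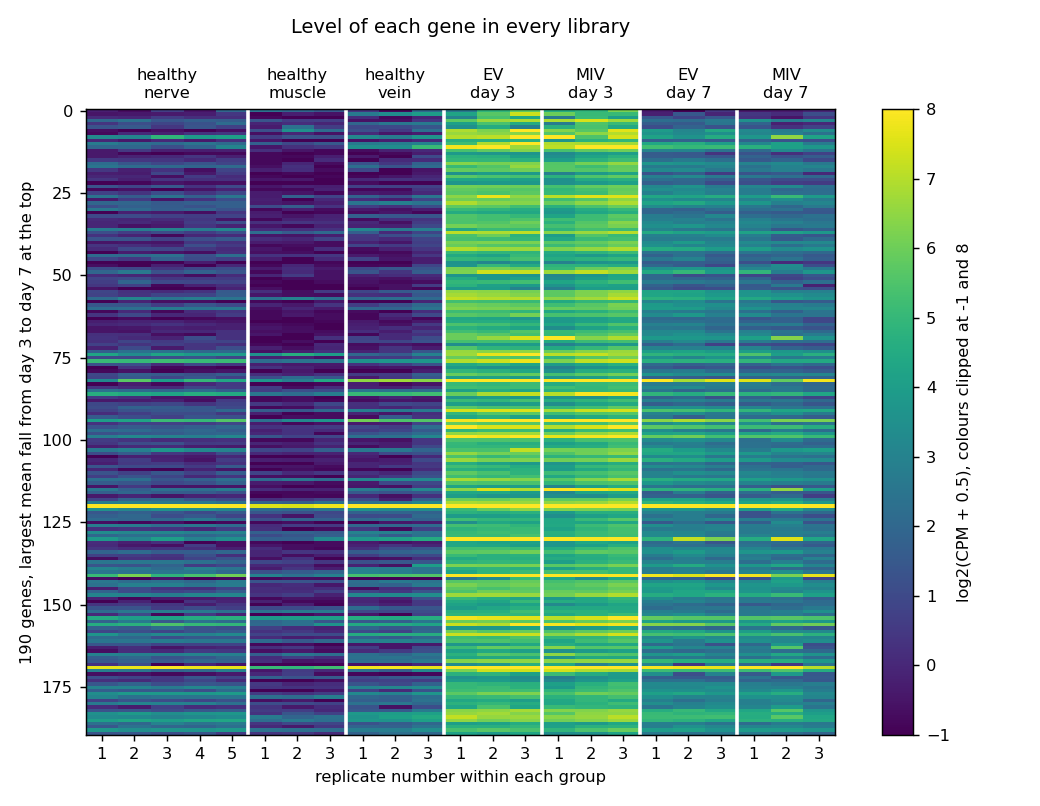
Level of each of the 190 genes in all 23 libraries, as log2(CPM + 0.5) with colours clipped at −1 and 8; each line across is a gene, ordered by its mean fall from day 3 to day 7. The 6 day 3 libraries are the brightest block, and the day 7 libraries lie between them and the healthy tissues for most genes.

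The groups separated gene by gene, with some exceptions. For 183 of the 190 genes every day 3 library was above every day 7 library, against 9.42% of all tested genes, again a share that the choice of genes sets. In the 7 genes whose libraries overlapped, MIV day 7 library 2 was the highest of day 7 in 6, and EV day 3 library 1 the lowest of day 3 in 5. This was not particular to the 190. MIV day 7 library 2 was at least 2 times both others of its group in 7.89% of the 190 and 8.37% of all tested genes. Among such genes EV day 3 library 1 was the lowest of its group in 66.7% of the 190 and 58.3% of all. The thresholds passed through a continuous range: 24 genes lay within 10% of a fold threshold. The smallest fold inside was 3.00 (ENSRNOG00000026502, 13.1 CPM at day 3 and 4.37 CPM at day 7 in MIV). The nearest gene outside was ENSRNOG00000001501, with 51.7 CPM at day 3 in MIV, a fold of 2.999 over its highest healthy tissue. On the level threshold the lowest mean inside was 10.1 CPM and the highest outside 9.94 CPM. Of 718 genes raised at day 3 over all healthy tissues in both series, 230 fell at least 3-fold in EV and 245 in MIV. Both falls were met by 193, of which 3 belong to 12 identifiers that the rule leaves out. A fall was met in EV alone by 37 and in MIV alone by 52. With days 3 and 7 exchanged, the same rule found 34 genes.

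Libraries of a group did not contribute alike. At day 3, MIV library 3 was the highest of its group in 151 of the 190 genes (79.5%), against 38.4% of all 15036 genes tested, and MIV library 1 was the highest in 20 (10.5%, against 39.3%). In EV the highest library at day 3 was library 1 in 75 genes (39.5%), library 2 in 46 (24.2%) and library 3 in 69 (36.3%). Those are close to the 38.3%, 28.3% and 33.4% of all genes. At day 7, EV library 3 was the highest in 27 (14.2%, against 37.9% of all genes) and MIV library 3 in 18 (9.47%, against 30.5% of all genes). Their muscle shares were 2.82% and 18.4%. MIV library 1, with a muscle share of 8.87%, was the highest in 98 (51.6%, against 34.1% of all genes). MIV library 2, with 2.63%, was the highest in 74 (38.9%, against 35.5%). EV library 1, with 2.64%, was the highest in 83 (43.7%, against 23.5%), and EV library 2, with 2.69%, in 80 (42.1%, against 38.6%). The cause of these differences was not tested. Without MIV day 3 library 3 the rule finds 175 genes, 174 of them among the 190.

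The genes that were much higher in EV day 3 library 3 than in EV day 3 library 1 differed in MIV too. There were 21 with at least a 2-fold difference, with a median ratio of 2.69 and a median EV day 3 mean of 113 CPM. In MIV at day 3, library 1 was the highest for 9 of these 21 (42.9%), and for 11 of the 168 genes without such a difference in either direction (6.55%). Among all tested genes the same shares were 51.5% and 39.3%. These counts were made after the values were seen and were not tested.

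Whether the genes were back at the level of healthy nerve by day 7 was asked with edgeR's quasi-likelihood test over all 23 libraries, with p-values adjusted by Benjamini-Hochberg over 15954 genes and called at 0.05. The rule set no relation between day 7 and healthy nerve, although it kept both below day 3. All 190 genes passed the filter on low counts. With EV day 7 and nerve alone 189 pass it, and with MIV day 7 and nerve alone 187. EV and MIV are compared with the same 5 nerve libraries, so the outcomes below are not independent of each other.

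In EV at day 7, 149 of the 190 genes were called higher than in healthy nerve, 1 lower and 40 neither, where 24.1% of all tested genes were called higher and 24% lower. The median log2 fold change was 2.28 (quartiles 1.12 and 3.43), against 0.00 over all genes. In MIV at day 7, 148 were called higher, 2 lower and 40 neither, where the background was 29.2% higher and 25.4% lower. The median log2 fold change was 2.0 (quartiles 0.98 and 3.04), against 0.05 over all genes. A log2 fold change above 3 remained in 65 genes in EV and 49 in MIV. The other 521 genes raised at day 3 by the same rule, without the 3-fold fall in both series, were called higher in 477 cases in EV (median 2.27) and 485 in MIV (median 2.63). Those 521 were set apart from the 190 by their day 7 levels, so more of them above nerve at day 7 follows in part from the choice. The values describe the sets side by side, and the difference between them was not tested.

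Genes called higher had been rarer in healthy nerve than those not called. The call itself favours this, since the nerve level is the base of the fold change that it tests. The median nerve level was 1.12 CPM for the 149 called in EV and 5.06 CPM for the 40 not called, whose log2 fold changes ran from −1.54 to 1.36 with a median of 0.30. In MIV the corresponding nerve levels were 1.16 CPM and 4.51 CPM. For the most abundant gene, ENSRNOG00000017895, day 7 and nerve differed by a log2 fold change of −0.03 ± 0.21 in EV (SE, adjusted p = 0.932) and 0.46 ± 0.20 in MIV (adjusted p = 0.0622).

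ENSRNOG00000012280 had the highest fold change over nerve in both series. Nerve gave 0.136, 0, 0.147, 0 and 0.146 CPM, and day 7 gave 14.8, 8.23 and 21.0 CPM in EV and 9.11, 6.34 and 10.1 CPM in MIV. Every repaired library was above every nerve library, by a log2 fold change of 7.17 ± 0.85 in EV (edgeR, adjusted p = 1.56e-06) and 6.51 ± 0.87 in MIV (adjusted p = 5.18e-06). At day 3 it had reached 118, 73.6 and 266 CPM in EV and 80.7, 49.8 and 195 CPM in MIV. ENSRNOG00000032178 was the next in EV, at 3.86, 3.53 and 4.06 CPM against at most 0.146 CPM in nerve (log2 fold change 5.47 ± 0.53, adjusted p = 1.31e-07). In MIV the next was ENSRNOG00000055716 (5.91 ± 0.95, adjusted p = 5.63e-05), where library 2 had 13.6 CPM and the other libraries 1.78 and 1.30 CPM, against at most 0.221 CPM in nerve.

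ENSRNOG00000022657 was called lower than nerve in both series. Its CPM was 33.5, 32.5, 36.0, 33.1 and 35.1 in nerve, 124, 158 and 213 in EV and 76.4, 141 and 162 in MIV at day 3, and then 25.1, 27.2 and 25.2 in EV and 29.8, 21.1 and 21.6 in MIV at day 7. All 6 day 7 libraries were below all 5 nerve libraries. The log2 fold change was −0.57 ± 0.20 in EV (adjusted p = 0.0217) and −0.55 ± 0.20 in MIV (adjusted p = 0.0240). The call in EV was lost without EV day 7 library 1 (adjusted p = 0.0572) or 3 (0.0734), with library totals in place of TMM factors (0.102) and with a replicate block (0.0529). That in MIV was lost without MIV day 7 library 2 (0.0900) or 3 (0.0849) and with the block (0.0631). ENSRNOG00000020552 was called lower in MIV, where it had 5.48, 2.19 and 2.91 CPM against 6.04 to 8.53 CPM in nerve (−1.05 ± 0.26, adjusted p = 0.00228). In EV it had 7.65, 5.49 and 4.98 CPM, which overlapped nerve (−0.39 ± 0.25, adjusted p = 0.218).

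**Figure D3:**
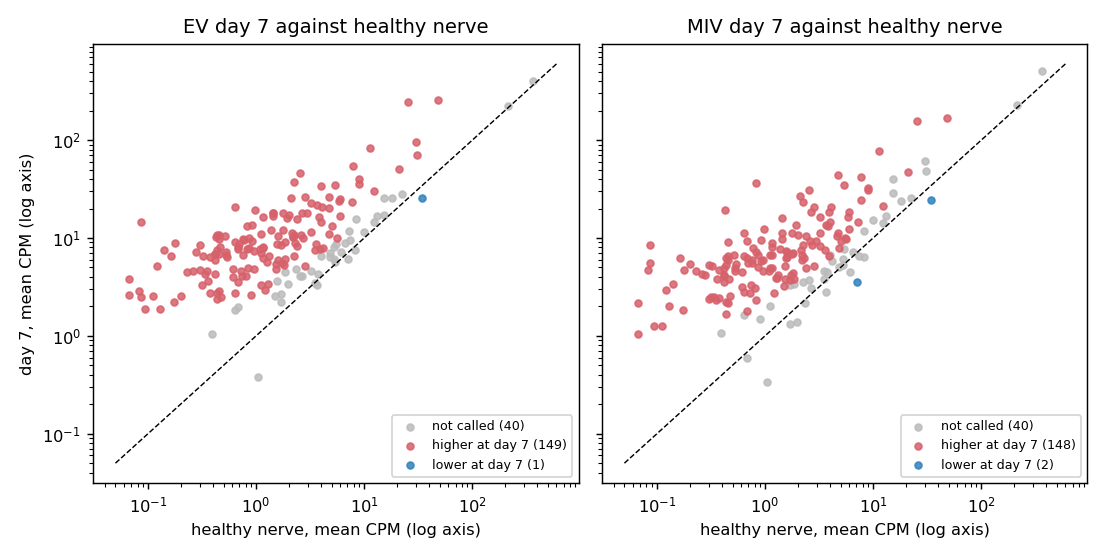
Mean CPM of each of the 190 genes at day 7 (vertical, log axis) against healthy nerve (horizontal, log axis), for EV and MIV, coloured by edgeR's call; the dashed line marks equal levels. Genes called higher (149 in EV, 148 in MIV) lie above the line mostly at low nerve levels, and those not called (40 in each) lie along it. The call uses the nerve level, so it partly sets this split.

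**Figure D4:**
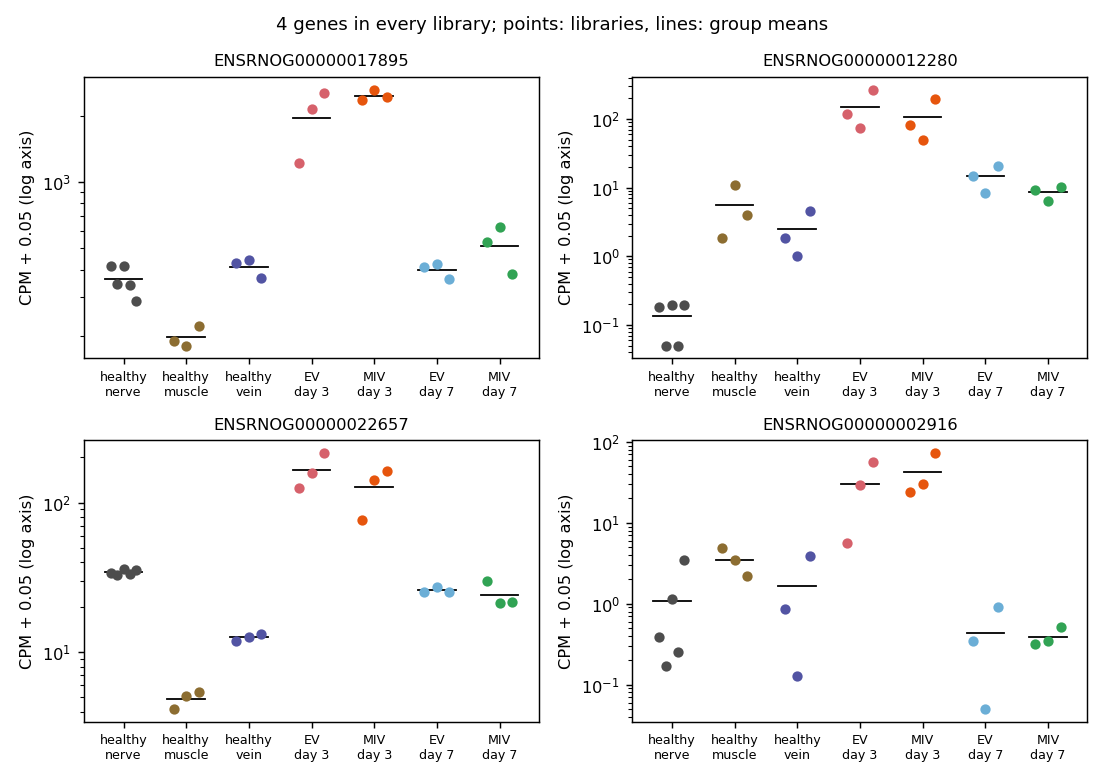
CPM + 0.05 (log axis) of 4 genes in every library; points are libraries and lines are group means. ENSRNOG00000017895 ends at day 7 near healthy nerve in EV and above its range in 2 of 3 MIV libraries, ENSRNOG00000022657 ends below nerve, ENSRNOG00000012280 ends well above it, and ENSRNOG00000002916 ends below healthy muscle.

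MIV against EV at the same day is a contrast that the rule did not use. It was fitted with edgeR over the 12 repaired libraries and 15036 genes. At day 3 none of the 190 genes was called higher or lower, and 0% of all genes were called in either direction. At an unadjusted p under 0.05, 3 of the 190 were higher and 0 lower in MIV, against 3.71% and 1.45% of all genes. The smallest adjusted p among the 190 was 0.668. The median log2 fold change was −0.15 (range −0.83 to 1.12), against −0.02 over all genes, and 141 of the 190 were negative. These genes moved together between libraries, so the 141 are not independent of each other. The median CPM of the 190 was 27.0, 35.0 and 44.6 in MIV libraries 1, 2 and 3, and 37.5, 37.9 and 38.1 in EV. Every MIV library was above every EV library for 2 genes and below for 2, against 7.3% and 3.93% of all genes. Per non-muscle count it was above for 3 and below for 2, against 7.87% and 3.39% of all genes.

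At day 7 again none of the 190 was called, and 0% of all genes were called higher and 0% lower. At an unadjusted p under 0.05, 1 gene was higher and 29 were lower in MIV, or 15.3% lower, where 9.82% of all genes were higher and 6.91% lower. The smallest adjusted p was 0.148. The median log2 fold change was −0.28 (quartiles −0.56 and 0.07), against 0.01 over all genes and 0.34 over the other 521 genes raised at day 3, and 135 of the 190 were negative. The 190 and the 521 were both chosen in part by their day 7 levels, so nothing is read from the difference between them. Every MIV library was below every EV library for 50 genes (26.3%, against 17.7% of all genes) and above for 2 (6.15% of all genes). Per non-muscle count, those numbers were 37 genes below (19.5%, against 11% of all genes) and 3 above (1.58%, against 8.41% of all genes). Per non-muscle count the summed shares at day 7 were 0.370%, 0.342% and 0.314% in EV and 0.324%, 0.343% and 0.287% in MIV, which overlap.

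The 2 genes called at day 7 under some other setting were picked after their values were seen. ENSRNOG00000009339, whose difference lies beyond the lower quartile, had 18.2, 21.7 and 14 CPM in EV and 13.1, 6.99 and 8.05 CPM in MIV at day 7, after 81.6 to 123 CPM in EV and 60.6 to 118 CPM in MIV at day 3. By CPM, no MIV library reached an EV library at day 7. The nearest were MIV library 1 and EV library 3, where muscle genes took 8.87% and 2.82% of the counts. Whether they stay apart per non-muscle count is not given here. The log2 fold change was −0.82 ± 0.30 (edgeR, adjusted p = 0.213). This gene was called when all 23 libraries entered the fit (adjusted p = 0.0470). ENSRNOG00000014130 had 9.62, 11 and 8.65 CPM in EV and 4.36, 9.40 and 3.91 CPM in MIV, where MIV library 2 lay among the EV values. Its log2 fold change was −0.61 (adjusted p = 0.344), and −1.11 without that library (adjusted p = 0.0206).

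Averaged over both days, 0 of the 190 genes were called, where 1.42% of all genes were called higher in MIV and 0.12% lower. At an unadjusted p under 0.05, 2 were higher and 25 lower (8.6% and 6.68% of all genes). Their median log2 fold change was −0.21, and the smallest adjusted p was 0.183. The fall from day 3 to day 7 was compared between the series by an interaction term. The rule had required a 3-fold fall in both series and so left out the 37 genes that met it in EV alone and the 52 in MIV alone, and nothing is read from the members' counts here. None of the 190 was called, nor was any gene in the table (0% in either direction), and the smallest adjusted p among the 190 was 0.906. At an unadjusted p under 0.05, 0 of the 190 were higher and 2 lower, against 3.15% and 2.15% of all genes. DESeq2 also called 0 of the 190 in each of these comparisons. The biological coefficient of variation of this fit was 37.1%.

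**Figure D5:**
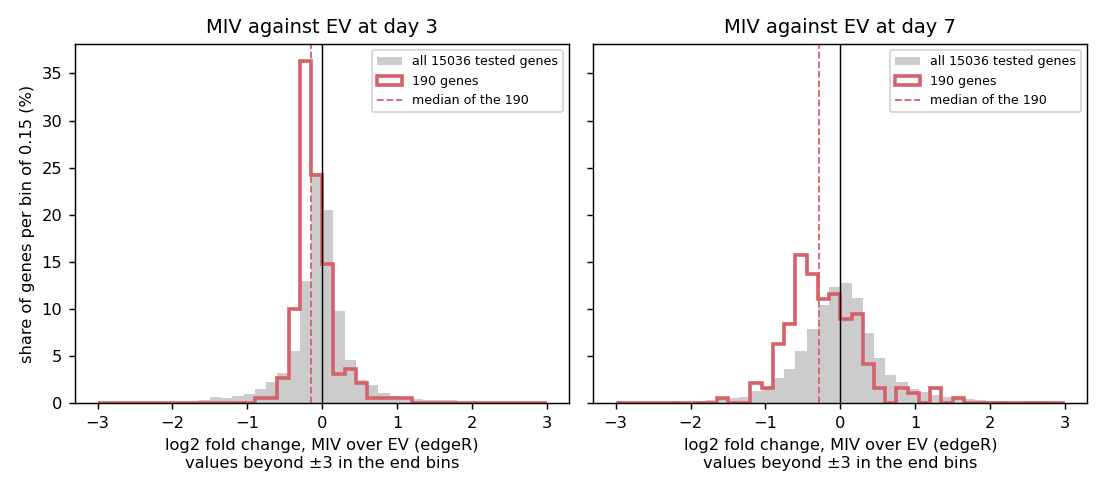
Distribution of edgeR's log2 fold change of MIV over EV at days 3 and 7, as percent of genes per bin of 0.15, for all 15036 tested genes (grey) and the 190 genes (red line, dashed at their median). The medians of the 190 genes are −0.15 at day 3 and −0.28 at day 7, with 0 genes called at either day.

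The healthy tissues were compared because both muscle and vein are parts of the graft. The filter on low counts ran over all 23 libraries, so genes rare in healthy tissue could pass it by their day 3 counts. Of the 190, 140 were under 1 CPM in muscle, 74 in nerve and 80 in vein. The numbers called among the 190 and the shares of all genes below are therefore not like for like, and nothing is read from their difference. By CPM, 102 of the 190 genes had their highest healthy mean in nerve, 77 in vein and 11 in muscle. This order depends on the scaling. The 608 muscle genes took 51.7 to 57.2% of the counts in healthy muscle, and the TMM factors were 0.410 to 0.421 in muscle and 1.03 to 1.24 elsewhere. With TMM sizes the same counts were 88, 47 and 55. The log2 fold changes below use TMM sizes, except where library totals are named. The CPM printed beside them use column totals, so CPM ratios of muscle to another tissue are lower than the folds given.

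In muscle against nerve, 26 of the 190 genes were called higher and 57 lower, where 31.5% of all genes were higher and 35.8% lower. The median log2 fold change was −0.41, against −0.19 over all genes. On library totals without TMM, 3 were higher and 129 lower (11.7% and 68.8% of all genes), with medians of −1.75 for the 190 and −1.54 for all genes. Of the 190, 136 pass the filter with muscle and nerve alone. ENSRNOG00000012280 was the highest over nerve in muscle as well, at 1.80, 11 and 3.99 CPM (log2 fold change 7.31 ± 0.86, adjusted p = 3.74e-07). ENSRNOG00000018509 had no count in muscle and 0.0735 to 1.16 CPM in nerve. Taking 3 counts over the muscle group as the limit for no count, it was at least 9.55-fold lower in muscle than its nerve mean of 0.634 CPM, a bound that covers counting error only. With TMM sizes the bound was 3.66-fold.

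In vein against nerve, 17 genes were called higher and 33 lower, where 18.9% of all genes were higher and 21.4% lower. The median log2 fold change was −0.23, against 0.00 over all genes. Vein library 3 was the highest of its group in 127 of the 190 genes (66.8%, against 43.9% of all genes), and without it 11 were higher and 46 lower with a median of −0.67, where 15.1% of all genes were higher and 18.3% lower with a median of −0.02. The number called higher was also 11 without vein library 2 (14.8% of all genes) or nerve library 3 (16.5%). ENSRNOG00000023633, one of the genes with the largest fall, was far higher in vein (5.93 to 15.6 CPM) than in nerve (0.203 to 0.874 CPM), by a log2 fold change of 4.60 ± 0.71 (adjusted p = 3.76e-05). ENSRNOG00000025302 went the other way, with 0.158 to 0.321 CPM in vein and 1.89 to 5.56 CPM in nerve (−3.80 ± 0.44, adjusted p = 1.19e-06). At day 3 it had 23.4 to 32.9 CPM in EV and 14.9 to 31.2 CPM in MIV, and at day 7 its 2.98 to 4.26 CPM in EV and 2.38 to 4.74 CPM in MIV lay within the nerve range. ENSRNOG00000015794 was also lower in vein (−3.75 ± 0.50, adjusted p = 6.21e-06), at 0.0790 to 0.174 CPM against 1.09 to 3.35 CPM in nerve.

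In muscle against vein, 32 genes were called higher and 35 lower, where 30.8% of all genes were higher and 33.4% lower. The median was −0.13 on the log2 scale, against −0.16 over all genes. Without vein library 3 the median was 0.16, against −0.11 over all genes. On library totals without TMM 6 genes were higher and 114 lower, where 11.3% of all genes were higher and 67.7% lower. The highest fold change among the genes called was that of a rare gene, ENSRNOG00000011557, with 0.524, 1.1 and 0.116 CPM in muscle and at most 0.0643 CPM in vein (4.91 ± 1.23, adjusted p = 0.00176). ENSRNOG00000023633, high in vein, was the lowest in muscle among the genes called (−4.37 ± 0.98, adjusted p = 0.000643). ENSRNOG00000017850 had 5.01, 6.26 and 6.06 CPM in muscle and 1.39, 1.42 and 1.61 CPM in vein (3.45 ± 0.30, adjusted p = 5.93e-09). ENSRNOG00000016148 had 0, 0.138 and 0 CPM in muscle and 1.39, 1.34 and 1.93 CPM in vein (−3.54 ± 0.62, adjusted p = 5.11e-05). In the 6 day 3 libraries both had similar levels, 23.5 to 36.7 CPM for the first and 21.4 to 39.9 CPM for the second.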

How the data were processed

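TRIzol was used to extract RNA, and poly-T beads to select mRNA (350 ng input), per the labels' protocols. The library kit does not mark strand, so reads of a gene and of an overlapping antisense gene cannot be told apart by strand. CASAVA and HISAT2 were used, per the submitters' processing notes. For the counting program, build, annotation and reads shared by paralogs, the sources used here give nothing. The deposited values are raw counts by gene and library in 1 table, whose 23 columns were matched to the library titles (0 left over).

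CPM uses the column total. The SE beside a log2 fold change of edgeR is that change, without its sign, divided by the square root of its F statistic, which is an approximation. The genes, the rules for naming them and the lists were chosen with earlier results of these data known. Tests used edgeR 4.0.16 under R 4.3.3 (low counts removed by filterByExpr at 10 per library and 15 in total, TMM, robust quasi-likelihood fit, 1 coefficient per group, Benjamini-Hochberg adjustment, threshold 0.05), on 12 repaired libraries (biological coefficient of variation 37.1%) or all 23 (31.4%). The script was tested on simulated counts. Alternatives were DESeq2 1.42.0, no filter, no TMM, fewer or more groups in the fit, a replicate block, and each library left out. Deviations from the group mean correlated between EV and MIV libraries of the same number at day 7 (0.23, 0.22 and 0.18) and not throughout at day 3 (−0.13, 0.28 and −0.04). Pairs of unlike number gave −0.17 to −0.0061 at day 7 and −0.29 to 0.24 at day 3. Deviations within a group sum to 0 for each gene, so these correlations depend on each other and no pairing is read from them. The labels do not say what a number marks. Named were the most abundant genes, those with the largest and smallest fall, those nearest the thresholds, and for each comparison those called with the largest log2 fold change. With no symbols, at most 2 identifiers per direction are given; ENSRNOG00000009339 and ENSRNOG00000014130 were added after their values were seen.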

Additional observations from a re-analysis of the deposited data

Results flagged for a closer look

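Of 23 group values of named genes checked for a single distant library, 2 stood apart, both in healthy nerve. Chance alone sets apart about 1 in 20. The 23 values do not cover every group of every named gene, so distant libraries in other groups can be missing here. For example, ENSRNOG00000055716 had 13.6 CPM in MIV day 7 library 2, against 1.78 and 1.30 CPM in libraries 1 and 3, and is not among the 2. ENSRNOG00000023633 had 0.874 CPM in nerve library 5, where the other 4 had 0.203 to 0.334 CPM. ENSRNOG00000015794 had 3.35 CPM in nerve library 2, where the other 4 had 1.09 to 1.47 CPM.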

How the results depend on the processing

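A fold of 2 in the rule gave 396 genes and a fold of 4 gave 134, and leaving out single libraries gave 175 to 212. Scaling by TMM sizes gave 176 genes, 174 of them among the 190. For MIV against EV, the 190 genes had 0 calls at day 3, 0 to 1 lower at day 7 and over both days, and 0 for the interaction when single libraries were left out (1 without MIV day 7 library 2, and over both days also without library 1); with all 23 libraries in the fit 1 was lower at day 7. Against nerve at day 7, leaving out libraries gave 142 to 149 higher and 0 to 1 lower in EV, and 140 to 151 higher and 1 to 4 lower in MIV (4 without MIV day 7 library 1, 1 without library 2 or 3). Without TMM, 0 were lower in EV at day 7, 3 were higher and 129 lower in muscle against nerve, and 6 higher and 114 lower in muscle against vein. Leaving out libraries gave 20 to 25 higher and 51 to 57 lower in muscle against nerve, 11 to 17 higher and 22 to 46 lower in vein against nerve, and 25 to 36 higher and 30 to 43 lower in muscle against vein; with only those 2 tissues in the fit, 20 were higher. With the replicate number as a block, 0 of the 190 were called in any of the MIV against EV comparisons, as without it, and the median at day 7 was −0.29. With that replicate block 142 genes were higher and 0 lower in EV at day 7 against nerve, and 142 higher and 1 lower in MIV. The share of all tested genes called also moved with the setting. In vein against nerve it was 18.9% higher in the main fit, 14.8% without vein library 2 and 16.5% without nerve library 3. The counts in this paragraph alone therefore do not show a shift particular to the 190 genes. The cause of these shifts was not tested. Counts near 0 in healthy tissue limit the folds of the rarest genes.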
